A study of Mus musculus with 17 samples.

Results

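The mitochondrial chromosome of the mouse carries 37 genes, and all 37 of the genes placed on it in the count table were followed here, out of 55385 identifiers. They are 13 mRNAs, 2 rRNAs and 22 tRNAs. Their RNA was counted in hippocampus from 17 adult mice aged 17.1 to 18.0 weeks, with 1 poly(A)-selected, strand-specific library per mouse. The 5 Dp16_2xIFNRs mice (3 females, 2 males) carried the Dp16 duplication with the gene dosage of the interferon receptors normalized. The 6 Dp16 mice (3 females, 3 males) carried the duplication of a segment of chromosome 16 alone, a model of Down syndrome. The 6 WT mice were C57BL/6J (3 females, 3 males). The labels give every mouse its own identifier, so the libraries were taken as biological replicates. Part of the identifier recurs in some mice of different genotypes, and its meaning is not given. Shared origin of such mice was not modelled, apart from an alternative with broad series of that part.

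Mitochondrial DNA is a small circle that is transcribed from both strands into long precursors. Most mRNAs and both rRNAs are separated from each other by tRNA genes, and cutting out the tRNAs releases them. The mRNAs encode core subunits of respiratory complexes I, III, IV and V, and the rRNAs and tRNAs serve the translation of those mRNAs inside the organelle. All other proteins of the organelle, including the polymerase, the RNA-binding proteins and most respiratory subunits, come from nuclear genes. Respiration is the main source of ATP for neurons, and levels of these RNAs are often read as a sign of mitochondrial content.

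In the nuclear genome, parts of the mitochondrial chromosome are present as copies, and a read from such a stretch can fit both places. On chromosome 1, 7 neighbouring pseudogenes at chr1:24611535-24616197 (GRCm38, minus strand) follow the order of chrM:6390-11042, called the block here. Their 4140 aligned bases differ from the mitochondrial genes at 2 bases. The block spans 4653 bases, and bases between the pseudogenes were not compared. The block holds the whole of mt-Co2, mt-Atp8, mt-Atp6, mt-Co3, mt-Nd3 and mt-Nd4l, the last 483 bases of mt-Co1 and the first 876 bases of mt-Nd4. All of these but mt-Atp8 have a pseudogene of their own in it. The following stretches of 90 bases from GENCODE transcripts show how alike the places are. The stretch of mt-Co3 (chrM:8953-9042, plus strand) is the same as that of its copy Gm28437 (chr1:24613536-24613625, minus strand).
mt-Co3: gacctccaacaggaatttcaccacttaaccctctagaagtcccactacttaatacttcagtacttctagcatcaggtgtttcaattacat
Gm28437: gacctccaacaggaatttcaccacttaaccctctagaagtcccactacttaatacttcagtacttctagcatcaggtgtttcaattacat
The start of mt-Nd3 (chrM:9459-9548, plus strand) and of its copy Gm28438 (chr1:24613030-24613119, minus strand) differ at 1 base, in capitals, which is their only mismatch over 345 aligned bases.
mt-Nd3: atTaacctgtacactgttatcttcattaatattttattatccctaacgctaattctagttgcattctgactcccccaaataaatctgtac
Gm28438: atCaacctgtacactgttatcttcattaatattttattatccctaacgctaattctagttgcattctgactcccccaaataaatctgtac
Copies that reach outside the block differ at more bases, such as Gm13340, with 97.6% identity over 1545 bases of mt-Co1, and Gm13339, with 96.7% over 510 bases of mt-Nd2. In mt-Cytb (chrM:14672-14761, plus strand) and its copy Gm11410 (chr4:80004516-80004605, plus strand), 6 bases differ in the stretch shown, in capitals, and identity is 92.9% over 1142 bases.
mt-Cytb: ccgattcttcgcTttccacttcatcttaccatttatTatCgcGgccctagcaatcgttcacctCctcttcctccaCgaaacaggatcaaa
Gm11410: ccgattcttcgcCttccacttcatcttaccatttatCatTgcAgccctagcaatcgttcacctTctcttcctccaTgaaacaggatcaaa
How the counting treated reads that fit more than 1 place is not given in the sources used here.

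The mitochondrial chromosome gave a similar share of each library's counts in the 3 genotypes. Its share of all counts averaged 4.71% ± 0.428 in Dp16_2xIFNRs mice (SD, n = 5), 4.70% ± 0.344 in Dp16 mice (SD, n = 6) and 4.92% ± 0.483 in WT mice (SD, n = 6). Single mice lay between 4.32% and 5.19% in Dp16_2xIFNRs, between 4.12% and 5.12% in Dp16 and between 4.45% and 5.84% in WT. The ranges overlap in all 3 pairs of genotypes, and the highest mouse was WT replicate 3. Library totals were 30.4 to 33.1 M counts (M, mega), so that the widest 95% Wilson interval of a share was ±0.00808 percentage points. Such an interval holds for counting error alone, as PCR duplicates could not be told from separate molecules. In bulk tissue, fewer cells of a type and less RNA per cell cannot be told apart.

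**Figure D1:**
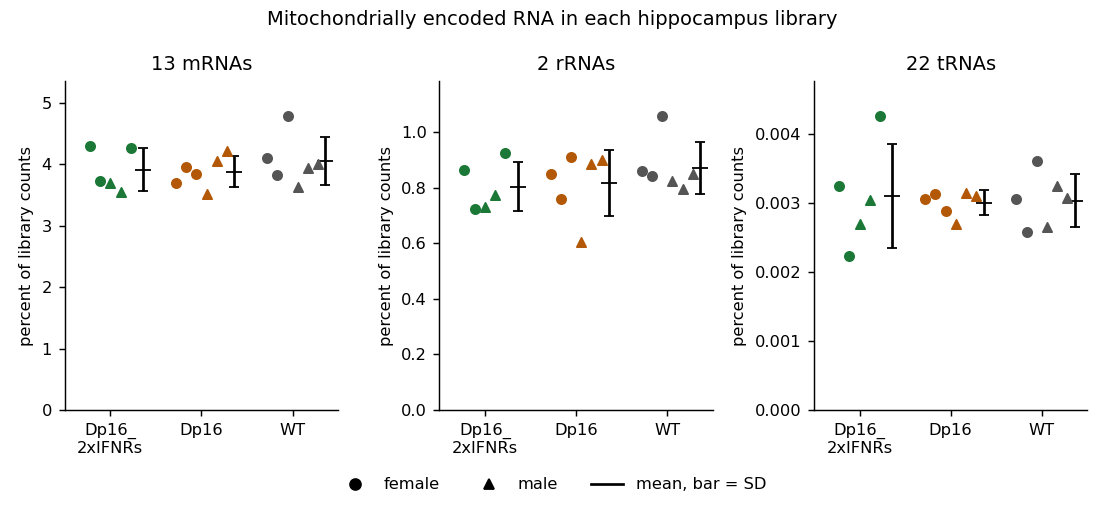
Percent of each library's counts from the 13 mitochondrial mRNAs, 2 rRNAs and 22 tRNAs, 1 point per mouse (circles female, triangles male), with mean and SD per genotype. The mRNA share averaged 3.91%, 3.88% and 4.05% in Dp16_2xIFNRs, Dp16 and WT mice, and the genotypes overlap in every panel.

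Most of these counts came from mRNA, which made up 80.7% to 85.2% of the mitochondrial counts of a mouse, and rRNA made up 14.7% to 19.2%. The 13 mRNAs took 3.91% ± 0.349 of all counts in Dp16_2xIFNRs mice, 3.88% ± 0.250 in Dp16 mice and 4.05% ± 0.394 in WT mice (SD, n = 5, 6 and 6). The 2 rRNAs took 0.805% ± 0.0882 in Dp16_2xIFNRs, 0.819% ± 0.119 in Dp16 and 0.872% ± 0.0942 in WT. The 22 tRNAs took 0.00310% ± 0.000755 in Dp16_2xIFNRs, 0.00301% ± 0.000181 in Dp16 and 0.00304% ± 0.000382 in WT. Poly(A)-selected libraries do not measure the shares of rRNA and tRNA in the tissue.

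Levels were compared between genes per length, with the RPKM values the authors deposited. mt-Co1 (chrM:5328-6872), the catalytic subunit of complex IV, was highest in each genotype, at 10482 ± 954 RPKM in Dp16_2xIFNRs, 10486 ± 815 in Dp16 and 11144 ± 1234 in WT mice. mt-Cytb (chrM:14145-15288), a haem-carrying subunit of complex III, was next, at 5614 ± 471, 5523 ± 252 and 5800 ± 583 RPKM in Dp16_2xIFNRs, Dp16 and WT mice. The lowest mouse for mt-Co1 lay above the highest for mt-Cytb in all 3 genotypes. From there the order was mt-Nd1, mt-Rnr1, mt-Nd2, mt-Rnr2, mt-Nd4, mt-Nd5 and mt-Nd6, and it was the same in each genotype. Neighbours in that order mostly overlapped in range, and did not overlap only between mt-Nd1 and mt-Rnr1 and between mt-Nd5 and mt-Nd6.

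mt-Nd6 (chrM:13552-14070) is the only mRNA read from the other strand. It reached 401 ± 69.1, 435 ± 32.0 and 410 ± 56.4 RPKM in Dp16_2xIFNRs, Dp16 and WT mice. In human cells this mRNA is known to lack a poly(A) tail. It overlaps the end of mt-Nd5 by 14 bases on the opposite strand.

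The 6 mRNAs that lie wholly in the block came last. Their median counts per library were 33 to 1562, whereas the other 7 mRNAs had medians of 6767 to 511972. Together they made up 0.210% to 0.827% of the mitochondrial counts of a mouse. mt-Co2, a copper-carrying subunit of complex IV, averaged 75.4 ± 13.5, 69.7 ± 8.76 and 80.6 ± 11.4 RPKM in Dp16_2xIFNRs, Dp16 and WT mice. mt-Atp8, a small subunit of complex V, was lowest of the 15 genes in each genotype, at 5.17 ± 1.35, 4.54 ± 1.03 and 4.89 ± 1.48 RPKM. The order of the other block genes differed between genotypes. In WT mice mt-Atp6, at 108 ± 140 RPKM, stood above mt-Co2, though only 1 of the 6 mice showed that order. How far reads shared with the copies set these levels was not tested.

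**Figure D2:**
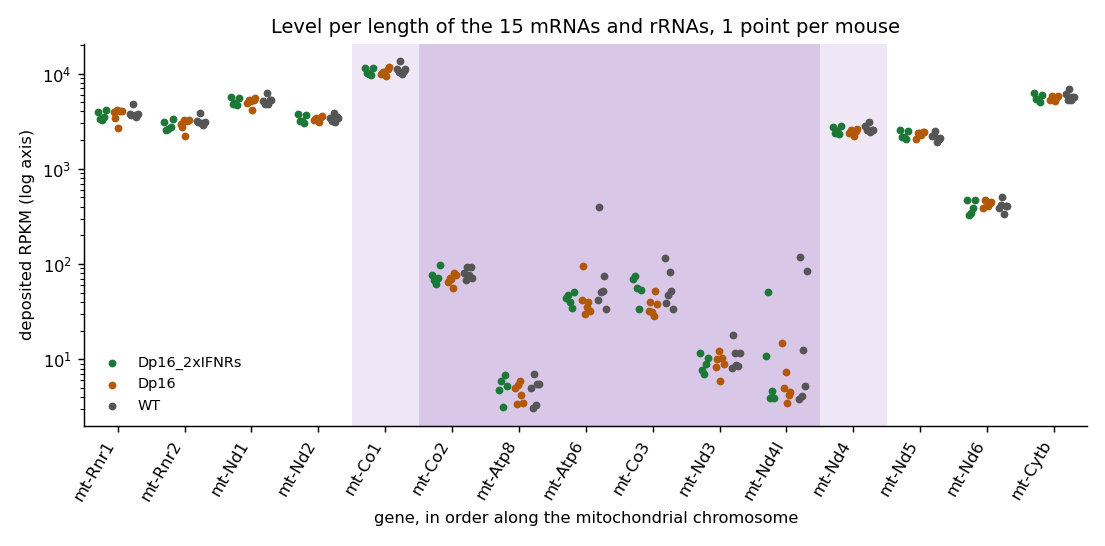
Deposited RPKM (log axis) of the 13 mRNAs and 2 rRNAs in the order of the chromosome, 1 point per mouse, coloured by genotype. Dark shading marks genes wholly inside the block, and pale shading genes partly inside it. mt-Atp8 averaged 4.54 to 5.17 RPKM, against 10482 to 11144 RPKM for its near neighbour mt-Co1.

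The copies had counts of their own. Gm28661, the copy of mt-Co2, had 457 to 1227 counts per library, and mt-Co2 had 1270 to 2112. Gm10925, the copy of mt-Atp6, had 1089 to 2089 counts. The copy of mt-Nd4l, Gm10222, had 38 to 106. For mt-Co1 and mt-Nd4, where part of the gene lies outside the block, the genes had far more counts than Gm29216 (411 to 1120) and Gm28439 (544 to 803).

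A further overlap lies between the complex V genes. The mRNA of mt-Atp8 and that of mt-Atp6 are 1 molecule with overlapping reading frames, and 43 bases belong to both genes. They are in capitals in this stretch (chrM:7907-7989, plus strand).
mt-Atp8 and mt-Atp6 junction: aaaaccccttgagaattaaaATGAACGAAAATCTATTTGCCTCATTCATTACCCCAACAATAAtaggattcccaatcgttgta
How reads from the 43 shared bases were assigned is not given in the sources used here.

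Of the 22 tRNAs, 8 passed the filter on low counts, and 9 had no count in any library, which allows up to 3 counts per library. Proline tRNA (mt-Tp) was highest by median count, at 321, followed by glutamine tRNA (mt-Tq) at 198 and tryptophan tRNA (mt-Tw) at 143. Of the 8 tRNA genes on the minus strand 6 passed, and of the 14 on the plus strand 2 did, mt-Tw and mt-Tt. The tRNAs named most often below are these, with bases shared with a neighbouring gene in capitals. They lie at chrM:15356-15422 (mt-Tp), chrM:6870-6938 (mt-Ts1) and chrM:5260-5326 (mt-Ty), all on the minus strand.
mt-Tp: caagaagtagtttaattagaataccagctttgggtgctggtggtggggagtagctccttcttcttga
mt-Ts1: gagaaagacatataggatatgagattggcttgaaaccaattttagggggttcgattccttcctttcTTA
mt-Ty: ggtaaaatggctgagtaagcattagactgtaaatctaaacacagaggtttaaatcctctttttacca
A mature tRNA is folded, modified and not polyadenylated, and mature tRNA and precursor cannot be told apart in these counts.

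No mitochondrial gene was called between genotypes. A gene was tested when it passed the filter, and called when its Benjamini-Hochberg adjusted p from edgeR's quasi-likelihood test was under 0.05 over 18983 tested genes, in a model with genotype and sex. The 23 tested mitochondrial genes were all 13 mRNAs, both rRNAs and the 8 tRNAs. Between Dp16_2xIFNRs and WT mice 0 of 23 were called, against 0.98% of all tested genes. Between Dp16_2xIFNRs and Dp16 mice 0 of 23 were called, against 0.0158%, and between Dp16 and WT mice 0 of 23, against 0.537%. At background shares this low, no call among 23 genes is close to the background. DESeq2 and limma-voom also called 0 in each comparison. At an unadjusted p under 0.05 there were 2, 1 and 3 genes in the same order, against 17%, 10.5% and 9.58% of all tested genes. In no comparison did the CPM of a mitochondrial gene separate the 2 groups, against 2.17%, 0.616% and 0.99% of all tested genes.

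For the 7 mRNAs that are not wholly in the block, the intervals were narrow. Between Dp16_2xIFNRs and WT mice their log2 fold changes ran from -0.11 (mt-Co1) to 0.06 (mt-Nd5), and all 95% intervals lay between -0.30 and 0.23, that is between 0.810-fold and 1.17-fold. Between Dp16_2xIFNRs and Dp16 mice they ran from -0.16 (mt-Nd6) to 0.02 (mt-Nd4), with intervals between -0.39 and 0.18. Between Dp16 and WT mice they ran from -0.10 (mt-Nd4) to 0.12 (mt-Nd5), with intervals between -0.26 and 0.32.

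The well-counted subunits of complex I had values on both sides of zero. mt-Nd1 (chrM:2751-3707) and mt-Nd2 (chrM:3914-4951) form part of its membrane arm. mt-Nd1 had 5427, 4461, 4610, 4468 and 5394 CPM in the 5 Dp16_2xIFNRs mice. It had 4111 CPM at the lowest, 4929 at the median and 5469 at the highest in Dp16 mice, and 4463, 4965 and 6017 CPM in WT mice. The 3 genotypes cover nearly the same range, with a log2 fold change of -0.05 ± 0.087 (SE) between Dp16_2xIFNRs and WT mice (edgeR adjusted p = 0.804). mt-Nd5 (chrM:11742-13565), at the far end of that arm, had 3682, 3878 and 4714 CPM at the lowest, median and highest in Dp16_2xIFNRs, 3748, 4309 and 4584 in Dp16, and 3344, 3998 and 4603 in WT mice. Its log2 fold change between Dp16 and WT mice was 0.12 ± 0.079 (SE), with edgeR adjusted p = 0.676.

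In complexes III and IV the well-counted genes likewise overlapped between genotypes. mt-Cytb had 5742, 6024 and 7119 CPM at the lowest, median and highest in Dp16_2xIFNRs, 6093, 6292 and 6877 in Dp16, and 5827, 6505 and 7900 in WT mice. Its log2 fold change was -0.07 between Dp16_2xIFNRs and WT mice and -0.05 between Dp16 and WT mice (edgeR adjusted p = 0.706 and 0.874). mt-Co1 had 14596, 15059 and 18027 CPM in Dp16_2xIFNRs, 14884, 15917 and 18539 in Dp16, and 14686, 16959 and 21040 in WT mice. The highest WT value was that of replicate 3, which had the highest CPM of all 17 mice for 12 of the 23 genes.

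The rRNAs, the RNA core of the mitochondrial ribosome, were not called either. mt-Rnr2 (chrM:1094-2675), of the large subunit, had 3944, 4344 and 5328 CPM at the lowest, median and highest in Dp16_2xIFNRs, 3572, 4910 and 5294 in Dp16, and 4554, 4966 and 6131 in WT mice. Its log2 fold change was -0.17 ± 0.102 (SE) between Dp16_2xIFNRs and WT mice and -0.10 ± 0.097 between Dp16 and WT mice (edgeR adjusted p = 0.407 and 0.785). mt-Rnr1 (chrM:70-1024), of the small subunit, differed by -0.10 and -0.04 in the same comparisons. The lowest mouse for both was Dp16 replicate 4.

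**Figure D3:**
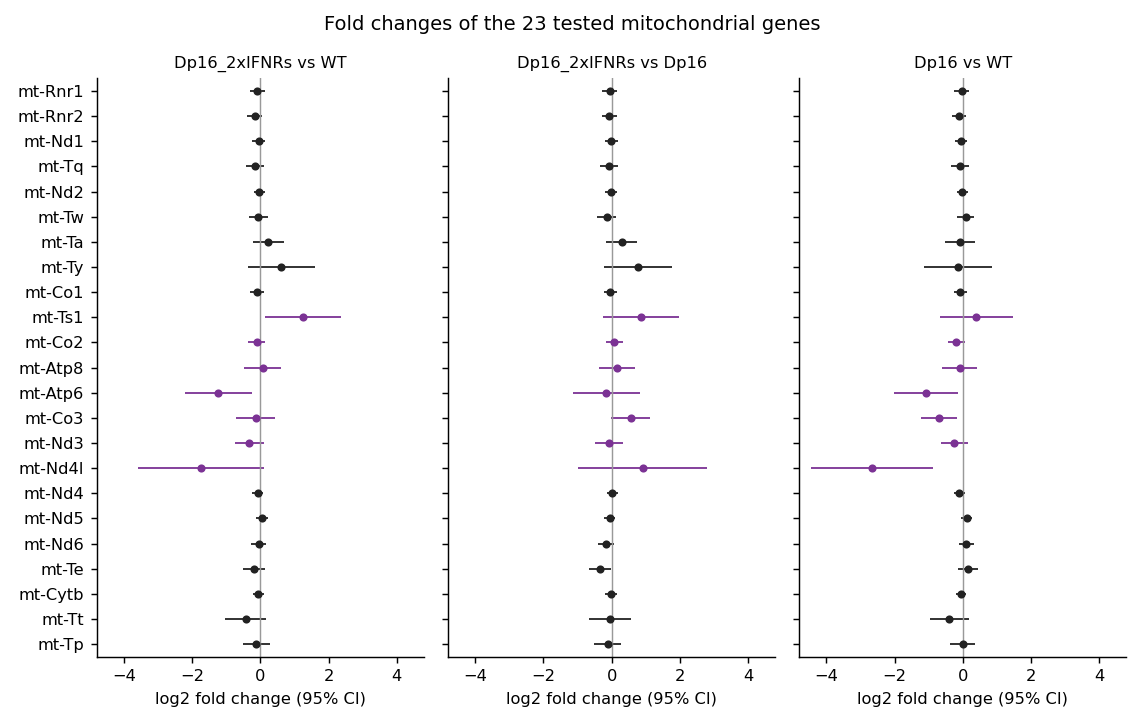
log2 fold change with 95% confidence interval (edgeR, x axis) of the 23 tested mitochondrial genes in chromosome order, for Dp16_2xIFNRs vs WT, Dp16_2xIFNRs vs Dp16 and Dp16 vs WT. Genes wholly inside the block are purple. Intervals of mt-Nd4l span several log2 units (-4.45 to -0.86 in Dp16 vs WT), and those of mt-Cytb less than 0.4.

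The median of the 23 genes lay a little below zero in each comparison. This median log2 fold change was -0.10 between Dp16_2xIFNRs and WT mice, -0.04 between Dp16_2xIFNRs and Dp16 mice and -0.07 between Dp16 and WT mice. The medians over all 18983 tested genes were 0.0043, -0.0073 and -0.0059. Of the 23 genes, 5, 8 and 5 lay above zero in the same order, against 51.1%, 47.9% and 48.1% of all tested genes. Mitochondrial genes share precursors and libraries, so these are not 23 independent signs. The median between Dp16 and WT mice was 0.0052 without WT replicate 3.

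The mRNAs not wholly in the block moved together from mouse to mouse. Across the 17 libraries the 21 pairs among these 7 mRNAs had Pearson correlations of log2 CPM between 0.66 and 0.96, with a median of 0.87. The points share library, depth scaling and precursor. mt-Rnr1 and mt-Rnr2 correlated at 0.97. The 6 genes wholly in the block were mixed in this. With mt-Nd1, mt-Co2 lay inside the range of 0.66 to 0.96, though it correlated at 0.39 with mt-Nd5. mt-Nd1 correlated at 0.78 with mt-Co2 and 0.45 with mt-Nd3, but at 0.13 with mt-Atp8, 0.15 with mt-Co3, -0.06 with mt-Atp6 and -0.20 with mt-Nd4l. The highest library exceeded the lowest by 1.30 to 1.73 times among the 9 mRNAs and rRNAs not wholly in the block, and by 1.72 to 32.7 times among the 6 genes in it.

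The largest fold changes belonged to genes in the block, where 1 or 2 mice stood apart. mt-Nd4l (chrM:9877-10173), a small membrane subunit of complex I, had 99, 461, 36, 43 and 37 counts in the 5 Dp16_2xIFNRs mice. The 6 Dp16 mice had 34 at the lowest, 45.5 at the median and 144 at the highest, and the 6 WT mice had 37, 85.5 and 1059. WT replicates 2 and 6 reached 1059 and 811 counts, and the other 4 WT mice lay between 37 and 121, within the range of the other genotypes. The log2 fold change was -2.66 ± 0.855 (SE) between Dp16 and WT mice (edgeR adjusted p = 0.283) and -1.74 ± 0.883 between Dp16_2xIFNRs and WT mice (adjusted p = 0.321). The Dp16 against WT value was -1.96 without WT replicate 2 and -1.71 without WT replicate 6, and at the other end -2.97 without WT replicate 1. The Dp16_2xIFNRs against WT value was -0.91 without WT replicate 2, -0.97 without WT replicate 6 and -2.76 without Dp16_2xIFNRs replicate 2. Without a filter on low counts the difference between Dp16 and WT mice was called (edgeR adjusted p = 0.0112). The counts of the copy Gm10222 in WT replicates 2 and 6 were 55 and 54, inside the range of the other libraries.

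mt-Atp6 (chrM:7927-8607), the proton channel subunit of complex V, also had a mouse far from the rest. It had 30.1, 30.8, 26.9, 23.02 and 35.2 CPM in the 5 Dp16_2xIFNRs mice. Dp16 mice had 19.9 CPM at the lowest, 26.1 at the median and 64.6 at the highest, and WT mice had 23.5, 34.7 and 265 CPM. A single WT mouse, replicate 2, gave 8123 counts, where the other WT mice gave 736 to 1633. The log2 fold change of -1.24 ± 0.471 (SE) between Dp16_2xIFNRs and WT mice (edgeR adjusted p = 0.197) became -0.32 without that mouse, and that of -1.08 ± 0.444 between Dp16 and WT mice (adjusted p = 0.461) became -0.20. Without a filter on low counts the difference between Dp16_2xIFNRs and WT mice was called (edgeR adjusted p = 0.0331). In that mouse mt-Atp8, which shares a transcript with mt-Atp6, had 19 counts, the lowest of all 17 libraries, and the copy Gm10925 had 1149.

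mt-Co3 (chrM:8607-9390), a core subunit of complex IV, had lower values in Dp16 than in WT mice, with overlap and no call. It had 54.5, 57.0, 42.9, 26.1 and 42.1 CPM in the Dp16_2xIFNRs mice. The Dp16 mice had 23.2 at the lowest, 28.2 at the median and 41.4 at the highest, and the WT mice had 27.0, 39.0 and 90.8 CPM. The log2 fold change between Dp16 and WT mice was -0.70 ± 0.257 (SE) with edgeR adjusted p = 0.388, and that between Dp16_2xIFNRs and Dp16 mice was 0.56 ± 0.272 (adjusted p = 0.483). The highest WT value was that of replicate 1, and without that mouse the difference between Dp16 and WT mice was -0.43. Both comparisons share the Dp16 mice. mt-Co2 and mt-Nd3, a core subunit of complex I, differed by -0.19 and -0.24 between Dp16 and WT mice and by -0.11 and -0.32 between Dp16_2xIFNRs and WT mice (edgeR adjusted p of at least 0.414).

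**Figure D4:**
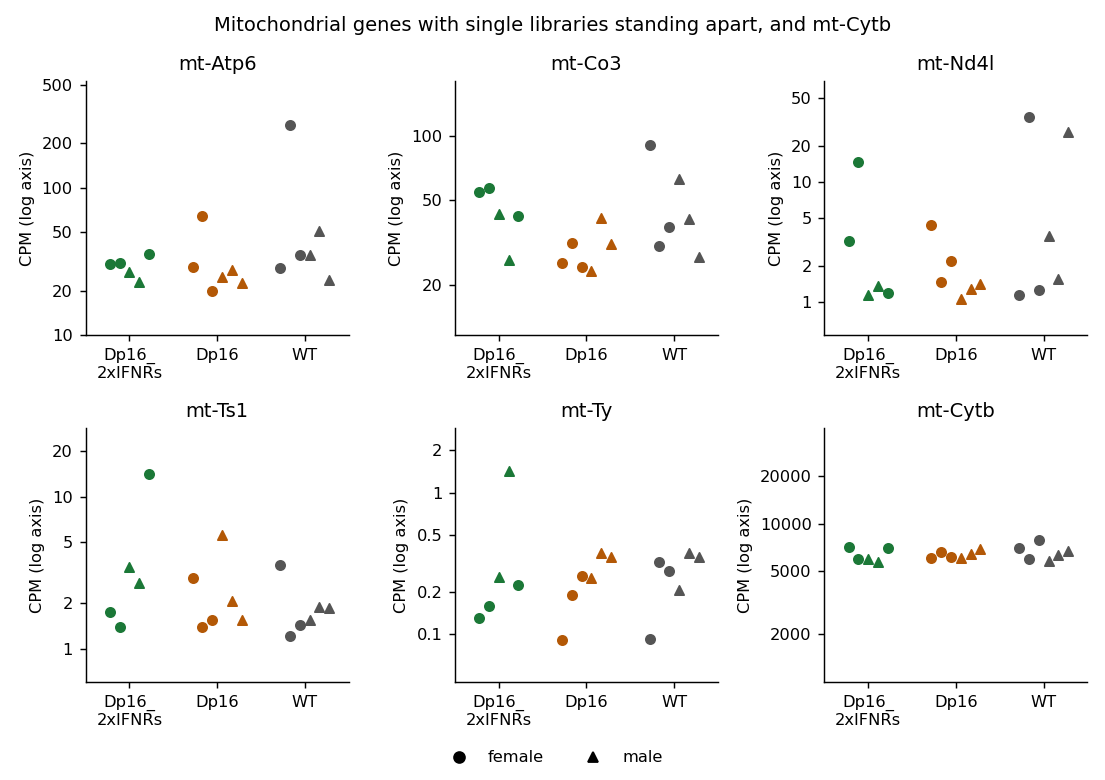
CPM on a log axis of 5 mitochondrial genes with mice that stand apart, and of mt-Cytb for contrast, 1 point per mouse (circles female, triangles male). WT replicate 2 reached 265 CPM of mt-Atp6 and 34.5 CPM of mt-Nd4l, and Dp16_2xIFNRs replicate 5 reached 14.1 CPM of mt-Ts1, while mt-Cytb stayed between 5742 and 7900 CPM.

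Among the tRNAs, the genes with the largest values also rested on single mice. Serine tRNA mt-Ts1, which lies in the block, had 54, 44, 109, 85 and 439 counts in the Dp16_2xIFNRs mice. Dp16 mice had 44 at the lowest, 57.5 at the median and 179 at the highest, and WT mice had 37, 55.5 and 115. The log2 fold change between Dp16_2xIFNRs and WT mice was 1.26 ± 0.530 (SE), with edgeR adjusted p = 0.239, and 0.21 without the mouse with 439 counts. Tyrosine tRNA mt-Ty had 4, 5, 8, 45 and 7 counts in Dp16_2xIFNRs mice, 3 to 12 in Dp16 mice and 3 to 12 in WT mice, so that 1 Dp16_2xIFNRs mouse stood apart at few counts.

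Glutamate tRNA mt-Te was the 1 gene at an unadjusted p under 0.05 between Dp16_2xIFNRs and Dp16 mice. It had 86, 64, 57, 70 and 78 counts in the Dp16_2xIFNRs mice, 77 to 107 in Dp16 mice and 63 to 117 in WT mice. The log2 fold change between Dp16_2xIFNRs and Dp16 mice was -0.34 ± 0.156 (SE; edgeR adjusted p = 0.465). The other tested tRNAs, for glutamine, tryptophan, alanine, threonine and proline, had log2 fold changes between -0.43 and 0.30 over the 3 comparisons. Threonine tRNA mt-Tt had 17 counts in Dp16 replicate 4, against 53 to 111 in the other 16 mice.

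Ratios of counts within a library do not depend on how libraries are scaled, and they are given here as a description with no test. mt-Rnr1 and mt-Rnr2 lie next to each other at the start of the heavy-strand precursor. Per 100 counts of mt-Rnr2 there were 78.0, 77.3, 74.7, 76.9 and 76.3 counts of mt-Rnr1 in the Dp16_2xIFNRs mice. In Dp16 mice there were 74.3 at the lowest, 75.6 at the median and 79.5 at the highest, and in WT mice 70.7, 72.8 and 74.8. WT mice lay lower, with a small overlap through WT replicate 3. Per 100 counts of mt-Cytb there were 66.2, 63.2, 64.4, 64.1 and 66.1 counts of mt-Nd5 in the Dp16_2xIFNRs mice, 61.5, 67.6 and 69.7 at the lowest, median and highest in Dp16 mice, and 57.2, 58.6 and 67.4 in WT mice. Of the 6 WT mice 5 lay between 57.2 and 59.5, below every mouse of the other genotypes, and WT replicate 2 lay among those. The rRNAs per 100 mRNA counts covered 19.4 to 21.9, 17.2 to 23.8 and 20.2 to 22.7 in Dp16_2xIFNRs, Dp16 and WT mice, with full overlap. Counts of mt-Nd6 per 100 of mt-Nd5 covered 4.31 to 5.41, 5.10 to 5.59 and 4.99 to 5.81 in the same order, also with overlap. These ratios are a few of many possible pairs. The share of all gene pairs that set WT mice apart as far was not computed.

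**Figure D5:**
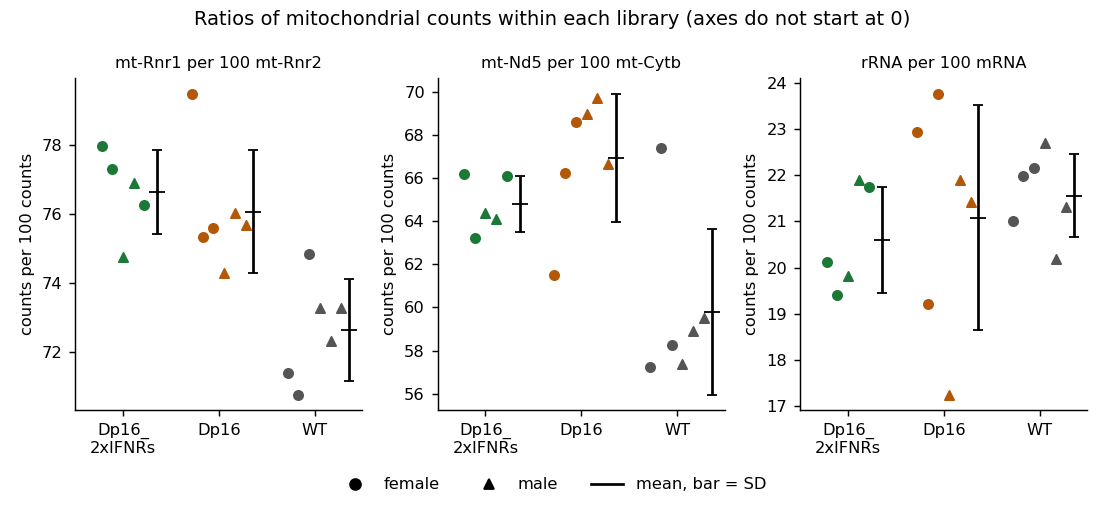
Counts of mt-Rnr1 per 100 of mt-Rnr2, of mt-Nd5 per 100 of mt-Cytb, and of the rRNAs per 100 of the mRNAs within each library, 1 point per mouse (circles female, triangles male) with mean and SD; axes do not start at 0. Means of mt-Nd5 per 100 mt-Cytb were 64.8, 67.0 and 59.8 in Dp16_2xIFNRs, Dp16 and WT mice.

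Between the sexes, 0 of 23 mitochondrial genes were called by edgeR, against 0.0685% of all tested genes. Values were on the female side for 21 of the 23 genes, with a median log2 fold change (female over male) of 0.09, against -0.0010 for all tested genes, of which 49.3% lay above zero. Leaving out each mouse gave 19 to 21 genes and a median of 0.059 to 0.12. These fits share nearly all mice, and the genes share precursors and libraries, so the signs are not independent. At an unadjusted p under 0.05 there were 2 genes, mt-Ty and mt-Atp6 (0.89), against 3.26% of all tested genes. Both rested on a mouse that stood apart: mt-Atp6 was 0.29 without the female WT replicate 2, and mt-Ty was -0.61 without the male Dp16_2xIFNRs replicate 4. The genes below zero were mt-Ty, at -1.16 ± 0.388 (SE), and alanine tRNA mt-Ta, at -0.12. The mitochondrial share was 4.45% to 5.84% in 9 females and 4.12% to 5.12% in 8 males. The order was not the same in every genotype: medians were 5.17% in females and 4.38% in males in Dp16_2xIFNRs, 4.71% and 4.93% in Dp16, and 4.97% and 4.74% in WT mice.

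Genes of the nuclear genome that serve mitochondrial RNA were set beside these values. The genes that transcribe mitochondrial DNA were 10, and 0 were called in any comparison. The shares of all tested genes called were 0.98% (Dp16_2xIFNRs against WT), 0.0158% (Dp16_2xIFNRs against Dp16) and 0.537% (Dp16 against WT). At these shares, 0 calls in lists this short is close to the background. The polymerase Polrmt averaged 25.2 ± 2.05 CPM in Dp16_2xIFNRs, 24.3 ± 0.913 in Dp16 and 27.3 ± 1.04 in WT mice (edgeR adjusted p = 0.300 between Dp16 and WT). Tfam, which packages mitochondrial DNA and opens its promoters, averaged 35.6 ± 2.06, 35.9 ± 1.79 and 36.2 ± 2.63 CPM. The initiation factor Tfb2m and the elongation factor Tefm differed by at most 0.09 on the log2 scale in any comparison. Of 8 genes for RNA stability and decay, 0 were called. Lrpprc and Slirp, whose proteins together hold mitochondrial mRNAs, the poly(A) polymerase Mtpap and the exonuclease Pnpt1 had log2 fold changes of 0.09, -0.12, 0.03 and 0.22 between Dp16_2xIFNRs and WT mice. Pnpt1, an interferon-induced gene in human cells, averaged 22.5 ± 2.52 CPM in Dp16_2xIFNRs, 18.1 ± 1.29 in Dp16 and 19.3 ± 2.92 in WT mice (edgeR adjusted p = 0.433 between Dp16_2xIFNRs and Dp16).

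The duplicated segment of chromosome 16 holds nuclear genes linked to mitochondria, and those tested here rose with it. All 6 tested genes of this list were called higher in Dp16_2xIFNRs than in WT mice and in Dp16 than in WT mice. Between Dp16_2xIFNRs and Dp16 mice 0 of 6 were called. The shares of all tested genes called were 0.98%, 0.537% and 0.0158% in the same order. The segment was duplicated by design, so the direction is fixed by the genotype. Gabpa, part of a transcription factor for many nuclear genes of the respiratory chain, averaged 59.0 ± 1.03 CPM in Dp16_2xIFNRs, 58.3 ± 2.91 in Dp16 and 38.8 ± 1.40 in WT mice. Its log2 fold changes against WT were 0.61 ± 0.044 and 0.59 ± 0.042 (SE; edgeR adjusted p = 3.07e-07 and 1.37e-07). Atp5j and Atp5o, subunits of complex V beside mt-Atp6 and mt-Atp8, rose by 0.50 and 0.41 in Dp16_2xIFNRs and by 0.56 and 0.46 in Dp16 mice. A second identifier named Atp5o overlaps it and had 0 counts in every library, so its value is less certain. The mitochondrial ribosomal proteins Mrpl39 and Mrps6 rose by 0.59 and 0.49 in Dp16_2xIFNRs and by 0.61 and 0.55 in Dp16 mice. The superoxide dismutase Sod1 rose by 0.41 and 0.46 in the same order. For Mrps6 the call between Dp16_2xIFNRs and WT mice (edgeR adjusted p = 0.0335) was lost in 5 of the 17 fits that leave out 1 mouse, with adjusted p up to 0.168 and a log2 fold change of 0.43 to 0.55. Its call between Dp16 and WT mice was lost with the series of mouse identifiers in the model (adjusted p = 0.0644).

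Outside the segment, 3 genes of these lists were called lower in Dp16_2xIFNRs than in WT mice. Of all 18983 tested genes 0.98% were called in that comparison, 65 of them lower. The 0.98% covers calls in both directions, and the share called lower over these lists was not computed. Most genes of the lists were not called, and the 3 calls are no result about the lists. Trmt61b, in human cells a methyltransferase of mitochondrial tRNA and rRNA, averaged 7.29 ± 0.687 CPM in Dp16_2xIFNRs, 7.98 ± 0.733 in Dp16 and 9.19 ± 0.802 in WT mice. It fell by 0.35 ± 0.078 (SE) on the log2 scale (edgeR adjusted p = 0.0357), and was 1 of 25 genes for RNA processing and modification. Esrra, a nuclear receptor that acts on respiratory genes, fell by 0.26 ± 0.058 (adjusted p = 0.0408), and was 1 of 14 regulators of biogenesis called lower, with Gabpa higher. Mrpl34, a protein of the large mitochondrial ribosomal subunit, fell by 0.40 ± 0.086 (adjusted p = 0.0302), and was the only 1 of 77 tested mitochondrial ribosomal proteins called lower. Of the 17 fits that leave out 1 mouse, 8, 10 and 6 lost the call for Trmt61b, Esrra and Mrpl34, with adjusted p up to 0.160, 0.145 and 0.145 without Dp16_2xIFNRs replicate 3. The log2 fold changes stayed at -0.40 to -0.31, -0.29 to -0.23 and -0.47 to -0.35 in these fits. None of the 3 was called between Dp16 and WT mice (log2 fold changes -0.20, -0.16 and -0.26).

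The nuclear subunits of the respiratory complexes had small negative values and few calls. Between Dp16_2xIFNRs and WT mice 0 of 37 genes of complex I, 0 of 9 of complex III and 0 of 15 of complex IV lay above zero, with medians of -0.15, -0.15 and -0.19, and 0 were called. Of all tested genes, 51.1% lay above zero and 0.98% were called in that comparison. At that share of calls, 0 among so few genes is close to the background. Genes measured in the same libraries do not give independent signs. In complex V, 2 of 16 lay above zero, and these were the segment genes Atp5j and Atp5o, the only 2 called. Between Dp16 and WT mice the medians were -0.07, -0.05, -0.10 and -0.07 for complexes I, III, IV and V. Complex II, which has no mitochondrially encoded subunit, had a median of -0.10 between Dp16_2xIFNRs and WT mice over 4 genes, and -0.02 between Dp16 and WT mice.

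Cytosolic ribosomal protein genes, short and abundant mRNAs, also had mostly negative values. Of 80 tested, 1 lay above zero between Dp16_2xIFNRs and WT mice (median -0.23) and 0 lay above zero between Dp16 and WT mice (median -0.14), with 0 called in each. Of all tested genes 51.1% and 48.1% lay above zero, and 0.98% and 0.537% were called, in the same order. The 4 libraries lowest in the share of ribosomal protein counts, Dp16_2xIFNRs replicates 2, 3 and 4 and Dp16 replicate 4, were also the 4 lowest in mitochondrial share. That match depends on the cut at 4. WT replicate 4 had a mitochondrial share of 4.455%, next to 4.450% in Dp16_2xIFNRs replicate 2. Its ribosomal protein share was 1.21%, against 0.967% to 1.05% in the 4 libraries. With the ribosomal protein level of each mouse as a covariate, the median of the 23 genes between Dp16_2xIFNRs and WT mice was 0.11. All 12 markers of hippocampal excitatory neurons passed the filter, and their summed level was 1214 to 1466 CPM in Dp16_2xIFNRs, 1216 to 1472 in Dp16 and 1121 to 1298 in WT mice. Choroid plexus markers, 10 of 10 detected, summed to 108 to 4343 CPM in Dp16_2xIFNRs, 70.6 to 5065 in Dp16 and 63.5 to 6644 in WT mice. The low ends were 1 mouse of each genotype, and without these 3 mice, an alternative added after seeing the data, 0 mitochondrial genes were called. Markers of cortex or thalamus summed to 160 to 195 CPM in Dp16_2xIFNRs, 172 to 210 in Dp16 and 180 to 425 in WT mice, and the part of such tissue in the mitochondrial values was not tested.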

How the data were processed

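The submitters' processing notes name build GRCm38, HISAT2 2.1.0 and HTSeq 0.6.1, beside SAMtools 1.5, FastQC 0.11.5 and bcl2fastq. Unnormalized read counts were deposited by the authors. The authors also deposited RPKM, and for all 28 mitochondrial genes with counts the length these imply is the annotated length. The counting strand setting is not given in the sources used here. The table names give GENCODE release 24, and positions and sequences came from GENCODE release 21. Copies were found with blastn (at least 99% identity over 100 bases).

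The mitochondrial genes were those on chrM. edgeR 4.0.16 in R 4.3.3 was used with TMM scaling, filterByExpr (minimum count 10), genotype and sex in the model, 13 residual degrees of freedom, and Benjamini-Hochberg adjustment over 18983 genes. CPM use TMM-scaled library sizes. The test was checked on simulated data. Replicates are separate mice, taken from the labels. Alternatives used DESeq2 1.42.0, limma 3.58.1 and sva 3.50.0. Replicate numbers did not pair the mice.

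Members and lists were chosen with earlier results of these data known. Named were all mRNAs and rRNAs, the tRNAs that passed the filter, nuclear list members called in any comparison, the segment genes and 8 genes of transcription and RNA stability.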

Additional observations from a re-analysis of the deposited data

Results flagged for a closer look

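Of 75 groups of values examined, 12 held a mouse far from the others of its genotype, where chance gives about 1 in 20 (3.75) for independent, normally distributed groups. These groups are not independent, since genes vary together and the mitochondrial share sums the same genes. Some values also rest on few counts, so 12 against 3.75 is no test. In mt-Atp6, WT replicate 2 had 265 CPM (others 23.5 to 50.7) and Dp16 replicate 2 had 64.6 CPM (others 19.9 to 28.8). In mt-Nd4l, Dp16_2xIFNRs replicate 2 had 14.5 CPM (others 1.14 to 3.20) and Dp16 replicate 1 had 4.40 CPM (others 1.06 to 2.17). In mt-Ts1, Dp16_2xIFNRs replicate 5 had 14.1 CPM (others 1.38 to 3.46), Dp16 replicate 4 had 5.56 CPM (others 1.38 to 2.93) and WT replicate 1 had 3.55 CPM (others 1.21 to 1.89). All 3 genes lie wholly in the block. For mt-Ts1 no copy was found among the nuclear transcripts searched.

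In mt-Ty, Dp16_2xIFNRs replicate 4 had 1.43 CPM from 45 counts (others 0.129 to 0.254). In mt-Tt, WT replicate 4 was lowest at 2.23 CPM (others 3.00 to 3.45). WT replicate 3 was highest in mt-Rnr1, at 4588 CPM (others 3293 to 3700), in mt-Rnr2, at 6131 CPM (others 4554 to 5065), and in the mitochondrial share, at 5.84% (others 4.45% to 4.97%). The cause of these values was not tested.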

How the results depend on the processing

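Under 37 alternatives, 0 mitochondrial genes were called in each comparison of genotypes, except that without a filter on low counts 1 was called between Dp16 and WT mice (mt-Nd4l, adjusted p = 0.0112) and 1 between Dp16_2xIFNRs and WT mice (mt-Atp6, adjusted p = 0.0331). Leaving out each mouse gave 0 calls throughout and a median log2 fold change of -0.14 to -0.03 between Dp16_2xIFNRs and WT, -0.09 to 0.01 between Dp16_2xIFNRs and Dp16, and -0.12 to 0.01 between Dp16 and WT mice. Libraries of one replicate number deviated together little (mean correlation 0.0772 over 16 pairs, against -0.0141 for others), and with the replicate block 0 were called in each comparison. A covariate of ribosomal protein level gave a median of 0.11 between Dp16_2xIFNRs and WT mice. Over the 13 mRNAs only, the share was 3.91%, 3.88% and 4.05% in Dp16_2xIFNRs, Dp16 and WT.

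Values that changed sign and moved by more than 1 standard error are given here. With the ribosomal protein covariate there were 22. Between Dp16 and WT mice these were mt-Rnr1 (0.11), mt-Rnr2 (0.032), mt-Nd1 (0.083), mt-Nd2 (0.088), mt-Co1 (0.043), mt-Cytb (0.033), mt-Tp (0.33) and Slirp (0.021). Between Dp16_2xIFNRs and WT mice they were mt-Rnr1 (0.14), mt-Rnr2 (0.043), mt-Nd1 (0.14), mt-Nd2 (0.11), mt-Tw (0.13), mt-Co1 (0.063), mt-Co2 (0.17), mt-Nd4 (0.052), mt-Nd6 (0.12), mt-Cytb (0.060), mt-Tt (0.13), mt-Tp (0.38), Tfam (0.037) and Slirp (0.018). The series of mouse identifiers reversed mt-Rnr1 (0.079) and mt-Rnr2 (0.0052) between Dp16 and WT mice. The slope on gene length reversed mt-Rnr1 (0.067) and mt-Tp (0.27) there, and mt-Tp (0.10) between Dp16_2xIFNRs and WT mice. Without the 3 mice lowest in choroid plexus markers, mt-Ts1 was -0.27 between Dp16_2xIFNRs and Dp16 mice. Leaving out each mouse gave mt-Ty -0.34 to 0.84 and mt-Co3 -0.27 to 0.17 between Dp16_2xIFNRs and WT mice, and mt-Ty -0.22 to 1.00, mt-Ts1 -0.13 to 1.25 and mt-Nd4l -0.17 to 1.21 between Dp16_2xIFNRs and Dp16 mice.

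The 6 mRNAs wholly in the block had medians of 33 to 1562 counts per library, and the other 7 mRNAs of at least 6767. The cause of the reversals was not tested. The length slope and leaving out the 3 mice were chosen after seeing the data. limma-trend on RPKM called 0 with either pseudocount (0.1 or 1). Calls of Trmt61b, Esrra, Mrpl34 and Mrps6 between Dp16_2xIFNRs and WT mice were lost in 16, 20, 11 and 9 of the 37 alternatives.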

Other observations

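The nuclear genes whose level followed the summed mitochondrial mRNA most closely over the 17 libraries were taken from 10105 protein-coding genes with at least 10 CPM. Csf1r, the receptor of microglia for colony stimulating factor, had a Pearson correlation of 0.90, and Scg3, a protein of secretory granules, of 0.89. The ribosomal proteins Rpl3, Rps4x, Rpl12 and Rpl4 followed, at 0.88, 0.87, 0.86 and 0.85. The others of the first 10 were Llph at 0.87, the complex I protein Ndufa5 at 0.87, Cd34, a surface protein of endothelium and blood progenitors, at 0.86, and Sec61g, of the protein channel of the endoplasmic reticulum, at 0.85. These points share library and scaling, and the genes were picked as the highest of many, so the values describe these libraries only.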
